A study of Mus musculus with 6 samples.

Results

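The genes described here are the 10 that carry the central steps of antigen presentation on MHC class I: the heavy chains H2-K1 and H2-D1, the light chain B2m, the peptide transporter Tap1 and Tap2, the loading factor Tapbp, the immunoproteasome subunits Psmb8, Psmb9 and Psmb10, and the transactivator Nlrc5. They were chosen by gene name from the 23398 genes of the deposited expression table, and each name matched 1 row. RNA was sequenced from mouse dendritic cells that had been raised in culture from marrow and then exposed for 12 hours to Ca(OH)2 nanoparticles (3 libraries) or to vehicle (3 libraries). Strain, sex and age of the mice, genotype, particle dose and the growth factors used for the culture are not given in the sources used here. Nothing in the labels says whether the 3 libraries of a group came from separate mice or cultures, so p-values measure the spread between these libraries, which may be technical.

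MHC class I molecules show peptides from inside the cell to CD8 T cells. The proteasome cuts cytosolic proteins, and in immune cells or under interferon its catalytic subunits Psmb5, Psmb6 and Psmb7 are replaced by Psmb8, Psmb9 and Psmb10, which favours peptides that class I can bind. Tap1 and Tap2 pump the peptides into the endoplasmic reticulum, tapasin (Tapbp) holds the empty heavy chain and B2m next to the transporter until a peptide is bound, and the complex then moves to the surface. Nlrc5 switches on many of these genes at once, together with proteins that bind a composite element with a CRE-like and a CCAAT-like part upstream of them. Dendritic cells use the pathway to prime CD8 T cells and raise it when they mature.

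The deposited values are treated as FPKM, reads per kilobase of gene on a scale per library whose normalization is not given. Read totals recovered from these values were 17282273 to 21977317 per library. Set against total reads, the scale differed between the groups. Relative to its geometric mean it was 0.898, 0.881 and 0.882 in vehicle libraries 1 to 3. It was 1.10, 1.13 and 1.15 in nanoparticle libraries 1 to 3. Nanoparticle library 1 stood apart. Across the 10682 genes tested below, which are not independent replicates, log2 values correlated at 0.9926 to 0.9938 between vehicle libraries and at 0.9895 between nanoparticle libraries 2 and 3, but at 0.9423 and 0.9282 between these and library 1. Results are therefore given with and without it where they rest on it. Of 10 listed dendritic cell markers, Itgax, Cd74 and H2-Ab1 were abundant (vehicle means of 448.8, 4116 and 1002 FPKM). Batf3, Clec10a, Clec9a, Cd209a and Zbtb46 were low (vehicle means of 8.90, 6.92, 6.59, 5.69 and 3.97 FPKM). Xcr1 had a vehicle mean of 0.144 FPKM, and Flt3 was under 0.1 FPKM in every library. The listed macrophage markers summed to 831.2 to 951.5 FPKM with vehicle.

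The promoter windows of the heavy chains, the light chain and the transporter are shown first, because these genes rose together in the libraries. They run from 250 bases before to 50 bases after the RefSeq start site on build GRCm38.p6, and are printed 5′ to 3′ on the strand of the gene. Capitals mark letters that match, on either strand, 1 of these cores: an interferon response core (GAAANNGAAA, or a shorter GAANNGAAA), a gamma-activated site core (TTCNNNGAA), an NF-kappaB core (GGGNNNNNCC), a CRE core (TGACG) or a CCAAT box (CCAAT). The H2-K1 window is chr17:34000298-34000597 (minus strand), H2-D1 chr17:35262844-35263143 (plus), B2m chr2:122147437-122147736 (plus) and Tap1 chr17:34187306-34187605 (plus).
H2-K1: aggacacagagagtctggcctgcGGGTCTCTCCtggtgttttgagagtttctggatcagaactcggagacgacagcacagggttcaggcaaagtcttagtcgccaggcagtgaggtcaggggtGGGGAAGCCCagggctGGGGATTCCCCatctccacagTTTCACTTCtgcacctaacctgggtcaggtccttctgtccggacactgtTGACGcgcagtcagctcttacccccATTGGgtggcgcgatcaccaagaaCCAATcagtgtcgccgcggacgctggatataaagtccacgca
H2-D1: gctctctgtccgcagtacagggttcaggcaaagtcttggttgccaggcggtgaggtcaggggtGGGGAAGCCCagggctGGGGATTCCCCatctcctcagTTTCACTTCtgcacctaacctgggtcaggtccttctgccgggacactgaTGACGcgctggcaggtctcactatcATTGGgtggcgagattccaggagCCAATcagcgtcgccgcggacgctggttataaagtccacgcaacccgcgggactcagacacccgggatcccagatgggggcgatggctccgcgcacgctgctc
B2m: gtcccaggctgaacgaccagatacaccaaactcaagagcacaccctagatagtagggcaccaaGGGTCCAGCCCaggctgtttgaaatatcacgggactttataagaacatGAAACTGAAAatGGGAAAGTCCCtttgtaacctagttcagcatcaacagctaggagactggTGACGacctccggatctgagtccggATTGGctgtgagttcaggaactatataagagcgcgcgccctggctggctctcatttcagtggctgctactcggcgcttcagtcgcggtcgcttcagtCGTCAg
Tap1: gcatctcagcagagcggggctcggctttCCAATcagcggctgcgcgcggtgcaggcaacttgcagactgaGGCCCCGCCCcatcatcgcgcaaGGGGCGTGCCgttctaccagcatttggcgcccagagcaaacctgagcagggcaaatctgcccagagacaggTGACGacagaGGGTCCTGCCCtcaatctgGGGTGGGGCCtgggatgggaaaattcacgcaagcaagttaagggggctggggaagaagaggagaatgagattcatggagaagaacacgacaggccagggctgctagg

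The windows of H2-K1 and H2-D1 aligned over 239 bases, of which 211 (88.3%) were identical. Their longest identical stretch was 47 bases, from -141 to -95 in H2-K1 and from -201 to -155 in H2-D1, counted from the start site at 0, and holds the NF-kappaB matches nearest to the shorter interferon core:
shared stretch: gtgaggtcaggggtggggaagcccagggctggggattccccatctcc

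Of the 10 genes, 8 had a window in the RefSeq table, and Tap2 and Nlrc5 did not. A CRE core was found in 5 of the 8 windows (H2-K1, H2-D1, B2m, Tap1 and Psmb9), against 21.0% of all 27025 windows of this length. A CCAAT box was found in 6 of 8 (the same 5 and Tapbp), against 37.9%, and an NF-kappaB core in those 5 genes, against 50.4%. These windows are not separate draws. Those of Tap1 and Psmb9 overlap by 275 bases, and their matches are the same sites counted in both. Those of H2-K1 and H2-D1 are 88.3% identical where they align. B2m alone held the interferon response core (3.49% of all windows). H2-K1 and H2-D1 held the shorter form (7.56% of all windows), which was added to the search after the windows had been read. Psmb8 alone held the gamma-activated site core (8.47%), and the Psmb10 window held none of the cores. The NF-kappaB core is nearly its own reverse complement, so that 1 place is often matched on both strands. These matches are letters in a window and show no binding.

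**Figure D1:**
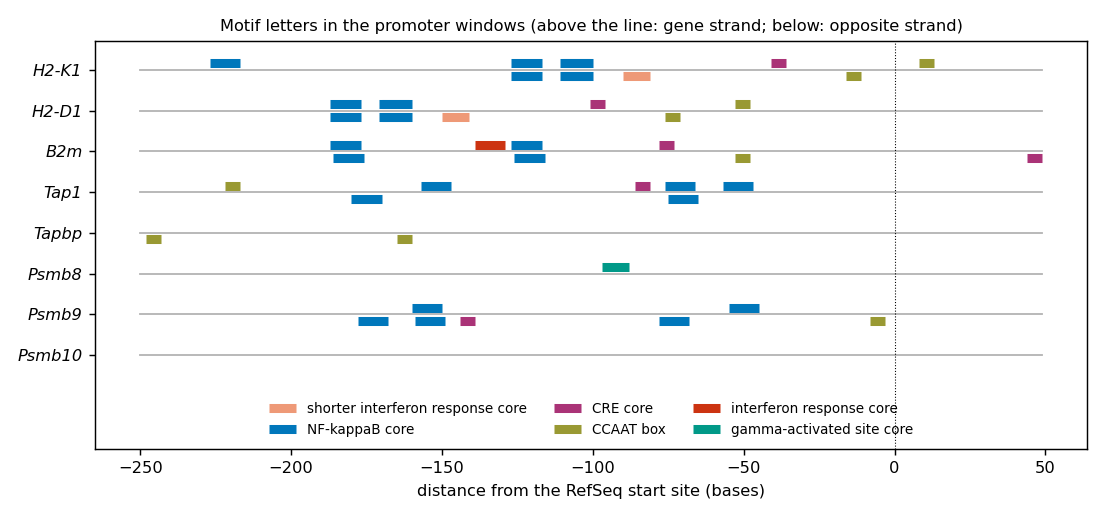
Position of each motif match (coloured bars) in the 8 promoter windows, with distance from the RefSeq start site in bases on the x axis, bars above a line for the strand of the gene and bars below for the opposite strand. In H2-K1, H2-D1 and B2m the NF-kappaB and interferon cores lie upstream of a CRE core that is followed by a CCAAT box, at different distances from the annotated start.

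Tap1 and Psmb9 lie head to head. Their start sites are 226 bases apart and their windows overlap by 275 bases, so the Tap1 sequence above is, read from the other strand, nearly all of the Psmb9 window. Psmb9, Tap1, Psmb8 and Tap2 follow each other within 34335 bases of chromosome 17. In GENCODE M21 on GRCm38 they span 34181987 to 34187764 (Psmb9, minus strand), 34187553 to 34197225 (Tap1, plus), 34197721 to 34201454 (Psmb8, plus) and 34203527 to 34216321 (Tap2, plus). Tapbp (33915899 to 33929292, plus) and H2-K1 (33996017 to 34000347, minus) lie before them and H2-D1 (35262730 to 35267499, plus) after them on the same chromosome. B2m is on chromosome 2 (122147686 to 122153083, plus), and Psmb10 (105935735 to 105938444, minus) and Nlrc5 (94434356 to 94527272, plus) are on chromosome 8. All 10 are annotated as protein coding.

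All 10 genes were higher with nanoparticles. In each of them every nanoparticle library lay above every vehicle library, which was the case for 25.9% of the 10682 tested genes (52.1% did not overlap in either direction). In limma's moderated test on log2(FPKM + 1) all 10 passed a Benjamini-Hochberg adjusted p of 0.05, with 17.0% of tested genes called higher and 33.2% called in either direction. Without nanoparticle library 1 all 10 passed again, with 34.3% of genes called higher and 64.8% in either direction. Without vehicle library 1, 2 or 3 they passed too, with 2226, 2188 and 2141 genes called in either direction in place of 3550. The median log2 change of the 10 was 1.78, from 1.40 (Tap2) to 2.44 (Tapbp), beside a median of -0.001 over all tested genes. With 0.1 added to each FPKM in place of 1, B2m was the lowest of the 10 and Tap1 the highest. In a bulk sample, more cells of a type and more RNA per cell cannot be told apart.

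The share of all reads that fell on the 10 genes does not use the deposited scale, but is itself relative to the total reads of each library. It was 0.543%, 0.516% and 0.510% in vehicle libraries 1 to 3 and 1.73%, 1.12% and 1.18% in nanoparticle libraries 1 to 3. The shares did not overlap between groups. Most of these reads fell on B2m, H2-D1 and H2-K1 (39188, 30731 and 14750 reads in vehicle library 1, with Tapbp next at 4323). The share therefore says little about the other genes. If libraries are scaled by total reads, the median log2 change of all genes becomes -0.28 and that of the 10 genes 1.47, so the distance between them is 1.75 in place of 1.78.

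**Figure D2:**
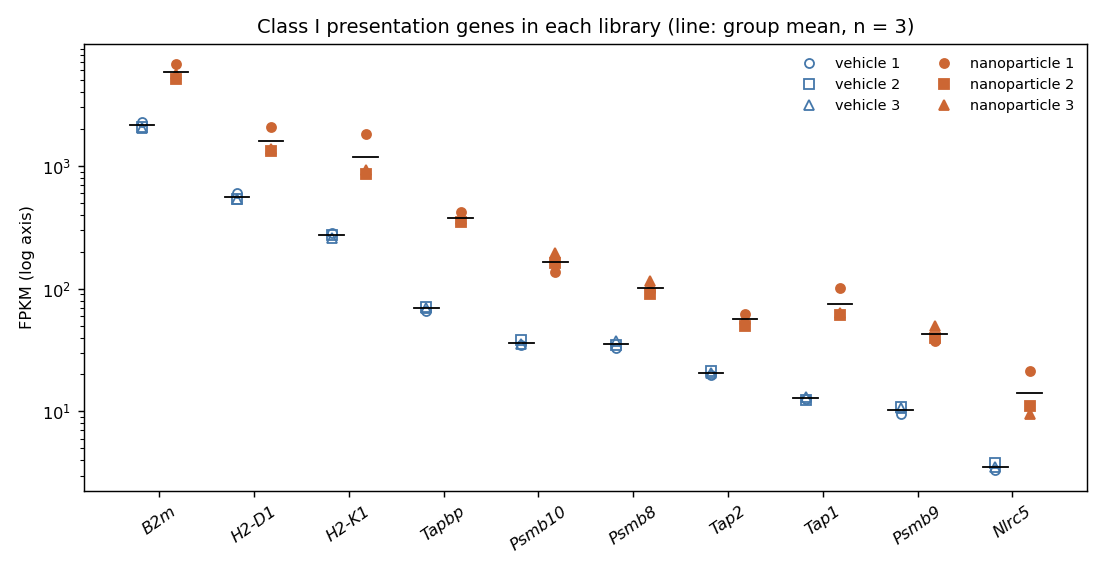
FPKM of each gene (log axis) in the 3 vehicle libraries (open symbols) and the 3 nanoparticle libraries (filled symbols), with black lines at the group means. For every gene all filled symbols lie above all open ones, and the circle of nanoparticle library 1 is the highest for H2-K1, H2-D1, B2m, Tap1, Tap2, Tapbp and Nlrc5 but not for the Psmb genes.

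B2m, the light chain shared by all class I molecules, was the most abundant of the 10. It was at 2287, 2084 and 2057 FPKM in vehicle libraries 1 to 3 and at 6737, 5102 and 5577 FPKM in nanoparticle libraries 1 to 3. The groups did not overlap, and nanoparticle library 1 was highest. By mean FPKM, B2m moved from place 19 to place 6 among all genes of the table. Its log2 change was 1.43 (SE 0.197, limma adjusted p = 0.0026, n = 3 per group), and 1.32 without nanoparticle library 1. With no filter on low values its adjusted p was 0.138, and the call was lost.

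H2-D1, a classical heavy chain, was at 598.1, 535.8 and 536.9 FPKM with vehicle. It was at 2078, 1327 and 1376 FPKM with nanoparticles. The nanoparticle libraries were all above the vehicle libraries, and library 1 stood above the other two, which were close to each other. Its log2 change was 1.49 (SE 0.216, limma adjusted p = 0.0032), and 1.28 without nanoparticle library 1.

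H2-K1, the other classical heavy chain of the pair, started lower, at 283.9, 271.9 and 260.5 FPKM with vehicle. It reached 1808, 854.9 and 919.3 FPKM with nanoparticles. Nanoparticle library 1 held 2.04 times the mean of libraries 2 and 3, yet all of them were at least 3 times the highest vehicle library. On the log2 scale the groups differed by 2.04 (SE 0.301, limma adjusted p = 0.0033). Without nanoparticle library 1 it was 1.70, and its SE fell from 0.301 to 0.0609.

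The 2 heavy chains thus came closer to each other. The ratio of H2-K1 to H2-D1 in FPKM was 0.475, 0.507 and 0.485 with vehicle and 0.870, 0.644 and 0.668 with nanoparticles, with no overlap. Their sum relative to B2m was 0.386, 0.388 and 0.388 with vehicle. With nanoparticles it was 0.577, 0.428 and 0.412, so the heavy chains rose more than the light chain in each library, most in library 1. These ratios were looked at after the levels were known and were not tested. No stretch of 100 bases in the longest coding transcript of H2-K1 occurs in the annotated transcripts of another gene, while 4.64% of such stretches in H2-D1 do, most of them in H2-Q1. How reads shared between class I genes were counted is not given in the sources used here.

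Tap1, a chain of the peptide transporter, was at 12.7, 12.5 and 13.2 FPKM with vehicle and at 101.5, 60.6 and 63.4 FPKM with nanoparticles. The lowest nanoparticle library was well above the highest vehicle library. This made a difference of 2.43 on the log2 scale (SE 0.207, limma adjusted p = 4.49e-04), and 2.19 without nanoparticle library 1.

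Tap2, its partner in the transporter, was at 19.7, 21.5 and 20.6 FPKM with vehicle and at 62.3, 49.8 and 56.4 FPKM with nanoparticles. The nanoparticle libraries were close to each other and clear of the vehicle group. Groups differed by 1.40 on the log2 scale (SE 0.117, limma adjusted p = 4.18e-04). The subunits changed places: Tap1 over Tap2 was 0.646, 0.580 and 0.640 with vehicle and 1.63, 1.22 and 1.12 with nanoparticles.

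Tapbp had the largest log2 change of the 10 with 1 added to each FPKM, narrowly above Tap1. That place depended on the settings. Tap1 came first with a pseudocount of 0.1, under scaling by total FPKM, and without vehicle library 1 or nanoparticle library 2 or 3. Tapbp was at 65.8, 71.3 and 70.0 FPKM with vehicle and at 418.3, 349.6 and 370.5 FPKM with nanoparticles. The nanoparticle libraries varied by 9.27% of their mean (coefficient of variation), the least of the 10 genes. Its log2 change was 2.44 (SE 0.122, limma adjusted p = 8.72e-05), and 2.37 without nanoparticle library 1. In the longest coding transcript of Tapbp 14.0% of stretches of 100 bases occur in other annotated genes, nearly all in the antisense gene Gm19412, and the strand of counting is not given in the sources used here.

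Psmb10, the subunit that takes the place of Psmb7, was at 34.6, 38.3 and 35.2 FPKM with vehicle and at 137.2, 160.9 and 195.3 FPKM with nanoparticles. Here nanoparticle library 1 was the lowest of its group, and still above every vehicle library. On the log2 scale the groups differed by 2.15 (SE 0.154, limma adjusted p = 2.52e-04), and 2.27 without nanoparticle library 1.

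Psmb9, which takes the place of Psmb6, was at 9.52, 10.8 and 10.8 FPKM with vehicle and at 37.8, 40.0 and 49.9 FPKM with nanoparticles. Its lowest nanoparticle library was again library 1. This made a difference of 1.93 on the log2 scale (SE 0.135, limma adjusted p = 2.33e-04). Of the Psmb9 transcript, 9.02% of stretches of 100 bases are shared with Tap1, whose annotated exons overlap it on the other strand over 212 bases.

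Psmb8, which takes the place of Psmb5, was at 33.0, 34.6 and 37.8 FPKM with vehicle and at 95.8, 90.6 and 115.9 FPKM with nanoparticles. Nanoparticle library 3 was highest and the groups did not overlap. Groups differed by 1.49 on the log2 scale (SE 0.132, limma adjusted p = 5.18e-04), and 1.52 without nanoparticle library 1.

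Nlrc5 was the least abundant of the 10, at 3.31, 3.83 and 3.54 FPKM with vehicle and at 21.5, 11.0 and 9.52 FPKM with nanoparticles. These levels rest on 560 to 644 reads per vehicle library and 1548 to 2978 reads per nanoparticle library. Nanoparticle library 1 held 2.09 times the mean of the other two, the largest such ratio of the 10 genes. Its log2 change was 1.64 (SE 0.283, limma adjusted p = 0.0061), and 1.30 without nanoparticle library 1.

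On the FPKM scale, which is per length, the order of mean levels with vehicle was B2m, H2-D1, H2-K1, Tapbp, Psmb10, Psmb8, Tap2, Tap1, Psmb9 and Nlrc5. Only Psmb10 and Psmb8 overlapped among neighbours in this order. With nanoparticles Tap1 passed Tap2 and the rest of the order was kept. Neighbours that then overlapped were H2-D1 with H2-K1, Psmb8 with Tap1, Tap1 with Tap2, and Tap2 with Psmb9. The span from the most to the least abundant gene was wide in both groups, from 2143 to 3.56 FPKM with vehicle and from 5805 to 14.0 FPKM with nanoparticles.

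The immunoproteasome subunits were next set against the subunits they replace, since their ratio is what the exchange would change. Psmb5 was at 120.0, 124.7 and 123.5 FPKM with vehicle and at 117.4, 234.1 and 302.3 FPKM with nanoparticles. Library 1 thus lay at the vehicle level while libraries 2 and 3 were above it, and Psmb5 was not called (log2 change 0.72, SE 0.338, limma adjusted p = 0.1548). Without nanoparticle library 1 its log2 change was 1.11 and passed. Psmb6 rose from 71.4, 69.7 and 71.5 FPKM to 137.6, 205.0 and 240.0 FPKM (log2 change 1.40, SE 0.213, limma adjusted p = 0.0037). Psmb7 rose from 13.2, 14.6 and 14.1 FPKM to 21.8, 27.0 and 28.2 FPKM (log2 change 0.83, SE 0.126, limma adjusted p = 0.0037). None of the 3 constitutive subunits was called lower.

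The ratio of Psmb10 to Psmb7 was 2.61, 2.63 and 2.5 with vehicle and 6.30, 5.96 and 6.93 with nanoparticles. Psmb8 to Psmb5 went from 0.275, 0.278 and 0.306 to 0.816, 0.387 and 0.383. Psmb9 to Psmb6 went from 0.133, 0.155 and 0.151 to 0.275, 0.195 and 0.208. All 3 ratios separated the groups. With 1 added to each FPKM, the differences in mean log2 ratio were 1.32, 0.77 and 0.53 in this order. With nothing added they were 1.31, 0.79 and 0.61. For each the exact permutation test, two-sided, gave p = 0.1 (adjusted over the 3 pairs 0.1, n = 3 per group), the smallest that 3 libraries against 3 allow, so none could pass 0.05. Without nanoparticle library 1 the differences were 1.33, 0.41 and 0.38, so the one for Psmb8 to Psmb5 rests in large part on that library. Scaling between libraries cancels in the plain FPKM ratios, but not fully in the tested ones, to which 1 was added.

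**Figure D3:**
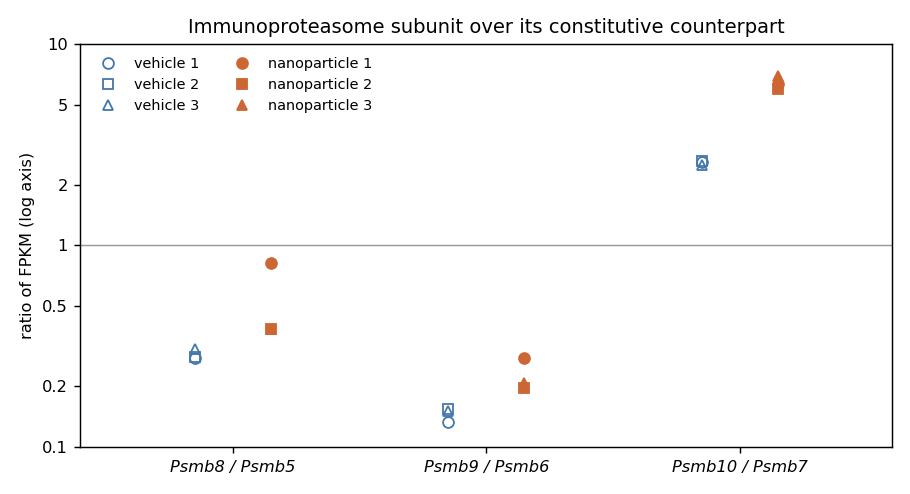
Ratio of the FPKM of each immunoproteasome subunit to that of the constitutive subunit it replaces (log axis), by library, with open symbols for vehicle and filled symbols for nanoparticles. In each pair the filled symbols lie above the open ones, and nanoparticle library 1 (filled circle) stands highest for Psmb8 to Psmb5 (0.816) and Psmb9 to Psmb6 (0.275) but not for Psmb10 to Psmb7.

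On the deposited scale the 10 genes split by role in nanoparticle library 1, which was not a planned comparison. Library 1 was the highest of the nanoparticle libraries for all 7 genes other than the immunoproteasome subunits, at 1.16 to 2.09 times the mean of libraries 2 and 3. For the 3 immunoproteasome subunits it was never the highest, at 0.770 to 0.928 times that mean, and for Psmb5, Psmb6 and Psmb7 it was the lowest, at 0.438 to 0.789 times. Over all tested genes library 1 was the highest nanoparticle library in 42.3% and the lowest in 46.4%. Over the genes called higher, it was the highest in 54.9% and the lowest in 34.2%. In the other lists it was the highest for 10 of the 11 other class I chains tested. It was the lowest for 4 of the 6 loading chaperones and the highest for 2. The neighbours Tap1 and Psmb9 fell on opposite sides of this split, at 1.64 and 0.841 times, although their promoter windows overlap. The split rests on the deposited scale. Relative to its geometric mean, total FPKM was 1.05, 1.21 and 1.29 in nanoparticle libraries 1 to 3. Scaling by it would raise library 1 against libraries 2 and 3. Library 1 would then be the highest for Psmb8 and not the lowest for Psmb9, so their places in the split would change. Markers of dendritic cells moved with this library as well: the summed FPKM of the 10 listed was 5371 to 5775 with vehicle, 3025 in the lowest nanoparticle library, which was library 1, and 6833 in the highest. Most of this sum came from the class II genes Cd74 and H2-Ab1, at 2270 and 494.1 FPKM in library 1. Not every marker followed it: Xcr1 was at 2.21, 0.828 and 0.711 FPKM in the nanoparticle libraries, highest in library 1. Of the 8 markers tested 4 were called lower and 0 higher (17.0% of tested genes were called higher and 16.2% lower). The 4 were Zbtb46, Cd209a, Clec10a and Clec9a, and the part of these markers in the class I results was not tested.

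**Figure D4:**
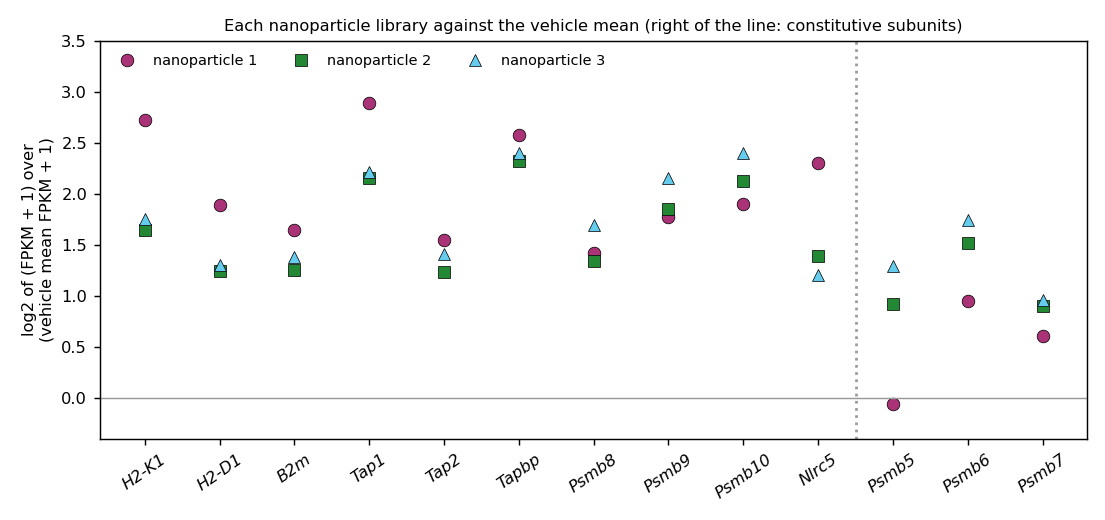
Log2 of FPKM + 1 in each nanoparticle library over the vehicle mean, for the 10 genes and, right of the dotted line, for the constitutive subunits Psmb5, Psmb6 and Psmb7. Library 1 (circles) is highest from H2-K1 to Tapbp and for Nlrc5, and lowest for Psmb9, Psmb10 and the constitutive subunits, where it lies at the vehicle level for Psmb5.

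Other cells that present on class I or produce interferon gamma could be in a marrow culture. Markers of T cells, B cells, natural killer cells and stromal cells were low: the summed FPKM of each list stayed at or under 2.41 in every library, and none of their genes reached the level for testing. T cell markers summed to 0.242 to 0.375 FPKM with vehicle and 0.801 to 1.44 FPKM with nanoparticles, without overlap. Most of this was Lck, at 0.257, 0.276 and 0.213 FPKM with vehicle and 1.004, 0.701 and 1.40 FPKM with nanoparticles, while Cd3e and Cd3g were under 0.05 FPKM throughout. The stromal marker Dcn was at most 0.0164 FPKM with vehicle and at 2.39, 0.311 and 0.0889 FPKM with nanoparticles. Plasmacytoid dendritic cell markers summed to 0.816 to 0.901 FPKM with vehicle and 1.03 to 1.64 FPKM with nanoparticles. Mast cell and basophil markers summed to 2.68 to 4.90 FPKM and 9.63 to 25.02 FPKM, with 1 of 3 tested called higher and 1 lower. The one called higher was Hdc, which makes histamine (log2 change 3.10, limma adjusted p = 0.0035), highest in nanoparticle library 1. Macrophage markers were present at summed levels of 831.2 to 951.5 FPKM with vehicle and 608.3 to 673.7 FPKM with nanoparticles, 2 of 9 called higher and 4 lower (17.0% and 16.2% of tested genes). Those called lower were C1qa, C1qb, C1qc and Mrc1. Called higher were Adgre1 (275.6, 141.2 and 132.4 FPKM in nanoparticle libraries 1 to 3) and Fcgr1 (83.1, 55.0 and 68.0 FPKM), both highest in library 1. Neutrophil markers summed to 35.1 to 39.8 FPKM with vehicle and 51.1 to 124.5 FPKM with nanoparticles. Most of this was S100a8, and 6 of the 10 listed were under 1 FPKM in every library. The part of these cells in the class I results was not tested.

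Of the other class I chains on a list of 15, 11 were tested, 10 of them were called higher and 1 lower (33.2% of tested genes were called in either direction), with a median log2 change of 2.80. H2-M2, a nonclassical chain, rose from 133.3, 117.2 and 118.2 FPKM to 2081, 1430 and 1325 FPKM (log2 change 3.68, limma adjusted p = 1.13e-04). With nanoparticles its range overlapped that of H2-D1. Cd1d1, which presents lipids, rose from 5.0, 6.14 and 6.71 FPKM to 21.3, 24.1 and 24.8 FPKM (log2 change 1.82). H2-T24 rose from 5.22, 4.16 and 3.75 FPKM to 49.1, 31.9 and 30.01 FPKM (log2 change 2.80).

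H2-Q6 and Mr1 were chosen after their values were seen. H2-Q6 had the largest fitted change among these chains. It went from 3.37, 2.78 and 2.37 FPKM to 468.1, 57.4 and 55.2 FPKM, a log2 change of 4.92 that was 3.91 without nanoparticle library 1. Reads of H2-Q6 and its near-identical neighbour H2-Q7 can be split by the counting, so values of single Q genes are uncertain. The single chain called lower was Mr1, which presents vitamin B metabolites, at 4.26, 3.87 and 4.09 FPKM with vehicle and 3.47, 2.496 and 2.33 FPKM with nanoparticles (log2 change -0.44, limma adjusted p = 0.0486). That call was lost without nanoparticle library 2 or 3, without any 1 of the vehicle libraries, with a pseudocount of 0.1, with no filter on low values, without the mean-variance trend and with the replicate number as a block.

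Of 6 chaperones and editing factors of the endoplasmic reticulum, 1 was called higher and 1 lower, and 4 were not called, near the 33.2% called in either direction over all tested genes. Leaving out nanoparticle library 1, 5 of the 6 were called, where 64.8% of all tested genes were. Tapbpl, a second peptide editor related to tapasin, rose from 5.80, 5.92 and 5.52 FPKM to 42.9, 21.3 and 19.8 FPKM (log2 change 2.02, limma adjusted p = 0.0028). Uggt1, which checks the folding of glycoproteins, fell from 10.8, 10.8 and 11.2 FPKM to 5.04, 5.98 and 5.35 FPKM (log2 change -0.89, limma adjusted p = 0.0010). Calr, the chaperone that holds the heavy chain in the loading complex, was at 361.6, 370.6 and 358.3 FPKM with vehicle and 215.4, 368.5 and 369.3 FPKM with nanoparticles and did not pass. On the deposited scale its lower mean came from library 1, and without that library the log2 change was 0.02 in place of -0.24. Under scaling by total FPKM Calr was called lower (log2 change -0.71). By total reads its log2 change was -0.58 and did not pass.

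Among 9 proteasome activators and assembly factors, 3 were called higher and 0 lower, where 33.2% of all tested genes were called in either direction. A fit without nanoparticle library 1 called 5 of the 9, where 64.8% of all tested genes were. The activator subunits Psme1 and Psme2, which form a cap that opens the proteasome for peptides, both rose. Psme2 went from 38.9, 45.4 and 40.6 FPKM to 195.4, 271.9 and 298.9 FPKM (log2 change 2.57, limma adjusted p = 2.48e-04). Psme1 went from 45.3, 45.6 and 44.6 FPKM to 132.1, 126.8 and 137.1 FPKM (log2 change 1.53, limma adjusted p = 1.73e-04). The assembly factor Pomp rose by a log2 change of 0.88, while Psme3, a nuclear activator, had a log2 change of -0.17 and did not pass. Psme3 was called lower under scaling by total FPKM (-0.63) and by total reads (-0.50). Of 5 cytosolic peptidases, which trim or destroy peptides, only Lap3 was called (log2 change 0.80, limma adjusted p = 0.0498), and Thop1 was not (log2 change -0.50). The Lap3 call was lost without any library other than nanoparticle library 1, with a pseudocount of 0.1, with no filter on low values, and under scaling by total FPKM (log2 change 0.34) and total reads (0.46). Thop1 was called lower under both scalings (-0.88 and -0.78) and without nanoparticle library 3 (-0.69). Without nanoparticle library 1, 3 of the 5 were called (64.8% of all tested genes).

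Among 11 transcription partners and inducers, 2 were called higher and 1 lower (33.2% of all tested genes in either direction). With nanoparticle library 1 left out, 5 of them were called (64.8% of all tested genes). Irf1, an interferon response factor that acts on class I promoters, rose from 5.50, 5.59 and 5.65 FPKM to 38.3, 32.9 and 34.9 FPKM (log2 change 2.46, limma adjusted p = 3.93e-05). Ciita, the class II counterpart of Nlrc5, went the other way, from 14.5, 16.7 and 16.1 FPKM to 4.47, 7.43 and 6.37 FPKM (log2 change -1.26, limma adjusted p = 0.0026). Rfx5, a DNA-binding partner of both transactivators, had a log2 change of 0.49 and did not pass (limma adjusted p = 0.0714).

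Of 9 genes of cross-presentation, the route by which dendritic cells place outside antigen on class I, 2 were called higher and 1 lower, the share called over all tested genes (33.2%). Without nanoparticle library 1, 7 were called (64.8% of all tested genes), and without any 1 of the vehicle libraries or nanoparticle library 2, 1 was. Wdfy4, which cross-presenting dendritic cells need for this route, fell from 17.8, 19.6 and 19.6 FPKM to 8.11, 5.55 and 5.33 FPKM (log2 change -1.47, limma adjusted p = 0.0011). Cybb, a subunit of the phagosomal oxidase, and Ifi30, a lysosomal thiol reductase, had log2 changes of 0.76 and 0.58. The calls of Cybb and Ifi30 were lost without any 1 of the vehicle libraries and under scaling by total reads, where their log2 changes were 0.42 and 0.23. Sec22b had a log2 change of 0.47 and did not pass.

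**Figure D5:**
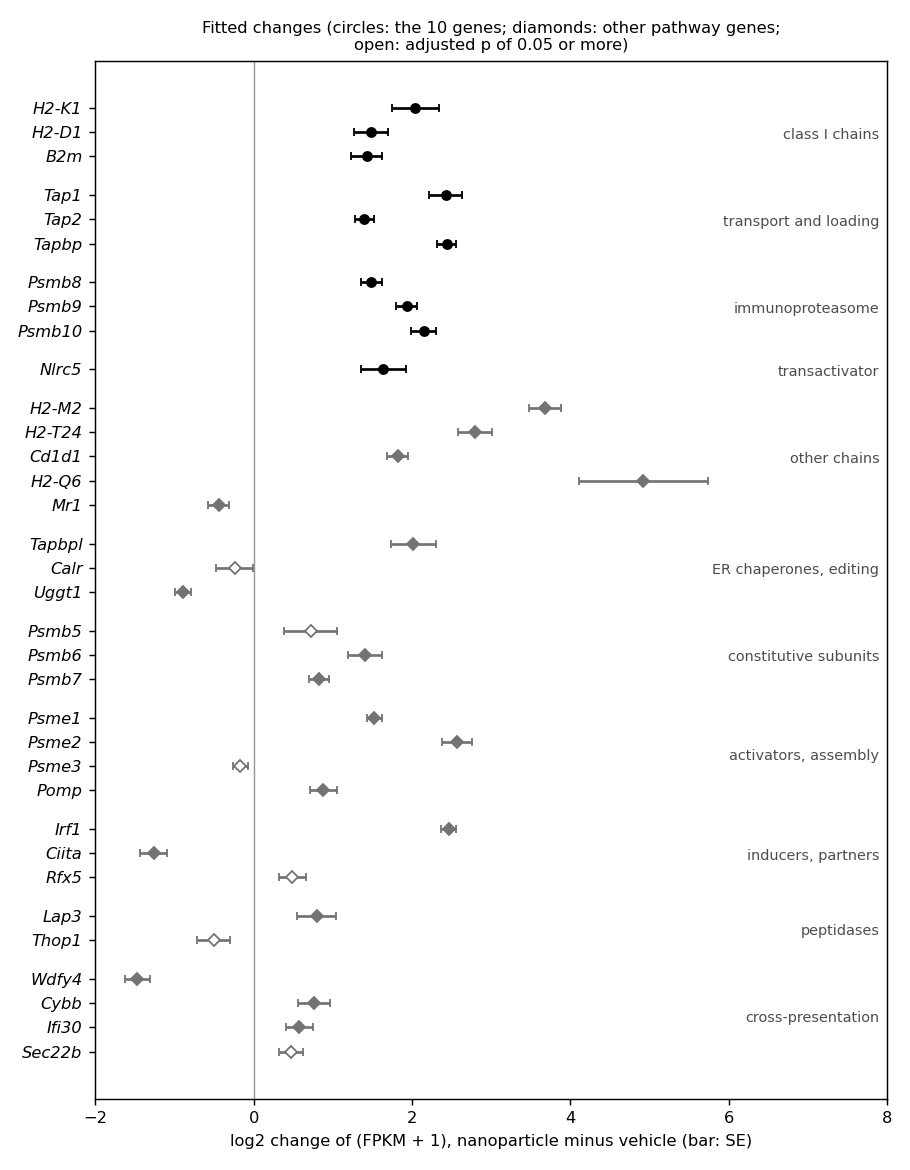
Fitted log2 change of FPKM + 1, nanoparticle minus vehicle, with its standard error, for the 10 genes (black circles) and for named genes of the other lists (grey diamonds), with open symbols where the limma adjusted p is 0.05 or more. The 10 genes lie between 1.40 and 2.44, and Mr1, Uggt1, Ciita and Wdfy4 are called to the left of 0.

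The genes whose profile over the 6 libraries was most like that of a member were found by the root mean square difference of log2(FPKM + 1), each gene centred on its own mean. The 4 smallest distances are named. Tapbp was closest to Irf1, at 0.0331 log2 units, where the median distance over tested genes was 1.25. The profiles hold the group change, so an unchanged gene lies far from a member that changed much. For Tap2, with its smaller change, this median was 0.752. Tap2 was closest to Sgk1 (0.0413), B2m to Cyp4v3 (0.0509) and H2-D1 to Pdpn (0.0524). For the other 6 genes the nearest gene lay at 0.0622 to 0.0903. Psmb9 and Psmb10 were each other's nearest among the 10 genes (0.124), and so were B2m and Tap2 (0.0890). Between 3 and 73 genes outside the 10 lay nearer to a member than its nearest fellow member did.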

How the data were processed

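The authors deposited 2 tables of 23398 genes by 6 libraries, which hold the same 140388 values. The unit was inferred: the deposited values are treated as FPKM, because 95.8% to 96.1% of the values above 0 became whole reads (within 0.01) when multiplied by the merged exon length of GENCODE M21 and 1 factor per library. For 500 genes of at least 1000 reads a fitted length did so, among them H2-K1, Tapbp, Psmb8 and Psmb9. Totals of these reads give the depth. The submitters' processing notes name CASAVA, STAR 2.5, HTSeq, edgeR 3.16.5, DESeq2 and the builds hg19 and mm10, with no role; the normalization is not given in the sources used here. Per the labels, 1 µg of total RNA was used per library.

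Genes that reached 1 FPKM in 3 or more libraries (10682, all 10 members among them) were tested with limma 3.58.1 (R 4.3.3): log2(FPKM + 1), group as the single term, eBayes with trend, two-sided, Benjamini-Hochberg adjustment over all tested genes at 0.05. The script was tested on simulated data. A log2 change with 1 added understates the change of low genes. Subunit ratios, on the log2 scale with 1 added to each FPKM, were compared with exact permutation tests (scipy 1.17.1). Members and lists were chosen with earlier results of these data known. Named outside the 10 members are, per list, at most the 3 called genes of smallest adjusted p and the first listed that was not called, all constitutive subunits, Ciita and Irf1, and for likeness the nearest genes of 4 members, the 4 smallest distances being taken after the values were seen; others are marked as chosen later. A gene that the rule also names is not reported here. Of 59 listed genes, 3 had no row under their name. A protein comparison was not made. Alternatives were another pseudocount, other filters, scalings by total FPKM and total reads, no trend, the replicate number as a block, and leaving out each library.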

Additional observations from a re-analysis of the deposited data

How the results depend on the processing

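All 10 genes were called higher in every alternative but 1: with no filter on low values 9 were, B2m being lost. Leaving out single libraries gave a median log2 change of the 10 between 1.61 and 1.86. It was 1.36 under scaling by total FPKM and 1.47 by total reads, where the median of all genes was -0.38 and -0.28, and calls over all genes split into 881 higher and 4307 lower, and 1108 higher and 3616 lower, against 1817 and 1733 as reported. Leaving out single libraries, the number of called genes ran from 2141 to 6923 (3550 as reported), of other class I chains from 10 to 11, of loading chaperones from 2 to 5, of constitutive subunits from 2 to 3, of activators and assembly factors from 3 to 5, of cytosolic peptidases from 0 to 3, of transcription partners from 3 to 5 and of cross-presentation genes from 1 to 7. The differences in log2 ratio ran from 0.41 to 0.95 (Psmb8 to Psmb5), 0.38 to 0.62 (Psmb9 to Psmb6) and 1.26 to 1.37 (Psmb10 to Psmb7). Calr ran from -0.37 to 0.0213, the reversal being without nanoparticle library 1. Scaling by total FPKM called 48.6% of all tested genes and scaling by total reads 44.2%, most of them lower. Under these scalings, in this order, 5 and 4 of 6 loading chaperones were called, and 5 and 5 of 9 activators and assembly factors. Calls were 3 and 2 of 5 cytosolic peptidases (Lap3 not among them) and 8 and 8 of 11 transcription partners. Cytosolic peptidases had 0 calls with a pseudocount of 0.1 (32.5% of all tested genes called) and with no filter on low values (14.4%). Cross-presentation had 1 with no filter, and transcription partners had 5 with a filter of 5 FPKM (38.6% of all tested genes called). For these changes the cause was not tested.

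With the replicate number as a block (replicate block), 2785 genes were called, all 10 members among them, and 1 gene of cross-presentation. The calls of Mr1, Cybb and Ifi30 were lost. Deviations of same-numbered libraries correlated at 0.065, 0.113 and -0.058. Libraries 1 and 2 of each group correlated best with their own number, and library 3 of each group did not. With 3 libraries per group, these values cannot show whether same-numbered libraries share a mouse or culture, which the labels do not say.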
